A study of Homo sapiens with 2 samples.

Results

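The proteasome genes described here are 42 genes taken by symbol: the subunits of the proteasome's core and regulatory particles, and the factors that assemble, activate or inhibit them. They are 42 of the 33544 genes named at a transcript start or end in either library, and all 42 were above 0 in both, as were 10442 genes in all at 1 FPKM or more in the larger library (fragments per kilobase of transcript, scaled to library size, so a level per length). The study compared LM3 cells, a human hepatocellular carcinoma line, in 1 library labelled as an NCOA5 knockout with 1 library of wild-type cells. NCOA5 is a nuclear receptor coactivator, and the study's title concerns epithelial-to-mesenchymal transition, growth and migration. The knockout sample is titled NCOA5/KO-1. Whether it was a clone or a pool, and how the gene was edited, is not given in the sources used here, and no further allele or treatment is labelled in either library.

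The proteasome degrades proteins tagged with ubiquitin. Its core is a barrel of stacked rings: outer alpha rings gate the entrance, and inner beta rings hold the cutting sites. A regulatory particle on the barrel's end has a base, whose ring of ATPases unfolds substrates, and a lid, which removes ubiquitin before entry. Dedicated chaperones build both particles, alternative activator rings can replace the regulatory particle, and many cancer cells rely heavily on the complex.

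The 2 libraries were checked against their labels before the results were read. NCOA5 stood at 25.4 FPKM in the knockout-labelled library and 20.03 FPKM in wild type, so its level was not lower under the knockout label. Exon 3 of its 8 exons, at chr20:46070210-46070536 (hg38), was listed in the knockout-labelled library both in a form with the exon, at 11.9 FPKM, and in a form without it, at 9.55 FPKM. A form with a shorter version of the exon, at chr20:46070210-46070473, was listed there at 3.97 FPKM. That version is no annotated exon of the gene. No pair of forms with and without exon 3 was above 0 in wild type. The library labelled as a knockout is called knockout-labelled throughout. The hepatocyte and liver tumour markers summed to 3093 FPKM in the knockout-labelled library and 2949 FPKM in wild type, with 6 of 10 at 1 FPKM or more in each. Most of that was the keratins KRT8 and KRT18, while AFP stood at 6.48 FPKM in the knockout-labelled library and 8.80 FPKM in wild type. The secreted liver proteins were low, with ALB at 2.92 FPKM against 1.41 FPKM and APOA1 at 0.161 FPKM against 0.168 FPKM. Fibroblast markers summed to 29.5 FPKM against 15.2 FPKM, endothelial markers to 6.45 FPKM against 2.81 FPKM, and leukocyte markers to 1.91 FPKM against 0.958 FPKM. Most of the fibroblast sum was LUM, at 27.2 FPKM against 14.0 FPKM. The largest endothelial value was KDR, at 5.20 FPKM against 1.43 FPKM. COL1A1, COL3A1, PDGFRB, PECAM1, VWF and CDH5 were lower in the knockout-labelled library. Of the 6 fibroblast markers 2 in the knockout-labelled library and 1 in wild type reached 1 FPKM, of the 5 endothelial markers 2 and 2, and of the 6 leukocyte markers 1 and 0. CD3E, CD14, MS4A1, CD68 and CLDN5 were at 0 in both libraries. The part of these markers in any proteasome value was not tested.

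The proteasome stood at nearly the same level in both libraries. Over the 42 genes the median log2 ratio of knockout-labelled over wild type was 0.03, with 25 genes above 0 and 17 below, and the median over all 10442 genes was 0.01. From end events alone, above 0 in both libraries for 24 of the 42, the median was -0.0024. The 42 values summed to 4863 FPKM in the knockout-labelled library and 4762 FPKM in wild type. The typical difference, regardless of direction, was 0.10 on the log2 scale for proteasome genes and 0.19 for all genes. It was 0.16 for the 3820 genes with a mean level of 20 to 700 FPKM, a range that holds all the proteasome genes. Within 0.1 of no difference lay 21 of the 42 proteasome genes, or 50%, and 2960 of all genes, or 28.4%. That share was not computed for genes of similar level. With 1 library per genotype there is no replicate check, no test and no error for any of these values, and a gene is called higher or lower here by size alone, at 1.5-fold or more. In bulk RNA, fewer cells that hold a transcript and less of it per cell cannot be told apart.

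By that rule 4 of the 42 genes (9.52%) differed, against 11.5% of all genes (1201 of 10442). PSMC1 was higher in the knockout-labelled library, where 4.97% of all genes were, and PSMC2, POMP and PSME2 were lower, where 6.53% of all genes were. Proteasome genes are expressed far above the typical gene, with a median level of 88.6 FPKM in the knockout-labelled library and 89.4 FPKM in wild type, against 12.9 FPKM and 13.0 FPKM for all genes. Among the 3820 genes with a mean level between 20 and 700 FPKM, 7.09% differed by 1.5-fold. At 2-fold, POMP alone of the 42 was called, as lower, against 3.24% of all genes, of which 1.21% were higher and 2.03% lower. The share of proteasome genes called was thus near the background, and the 4 called genes are described below as values.

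**Figure D1:**
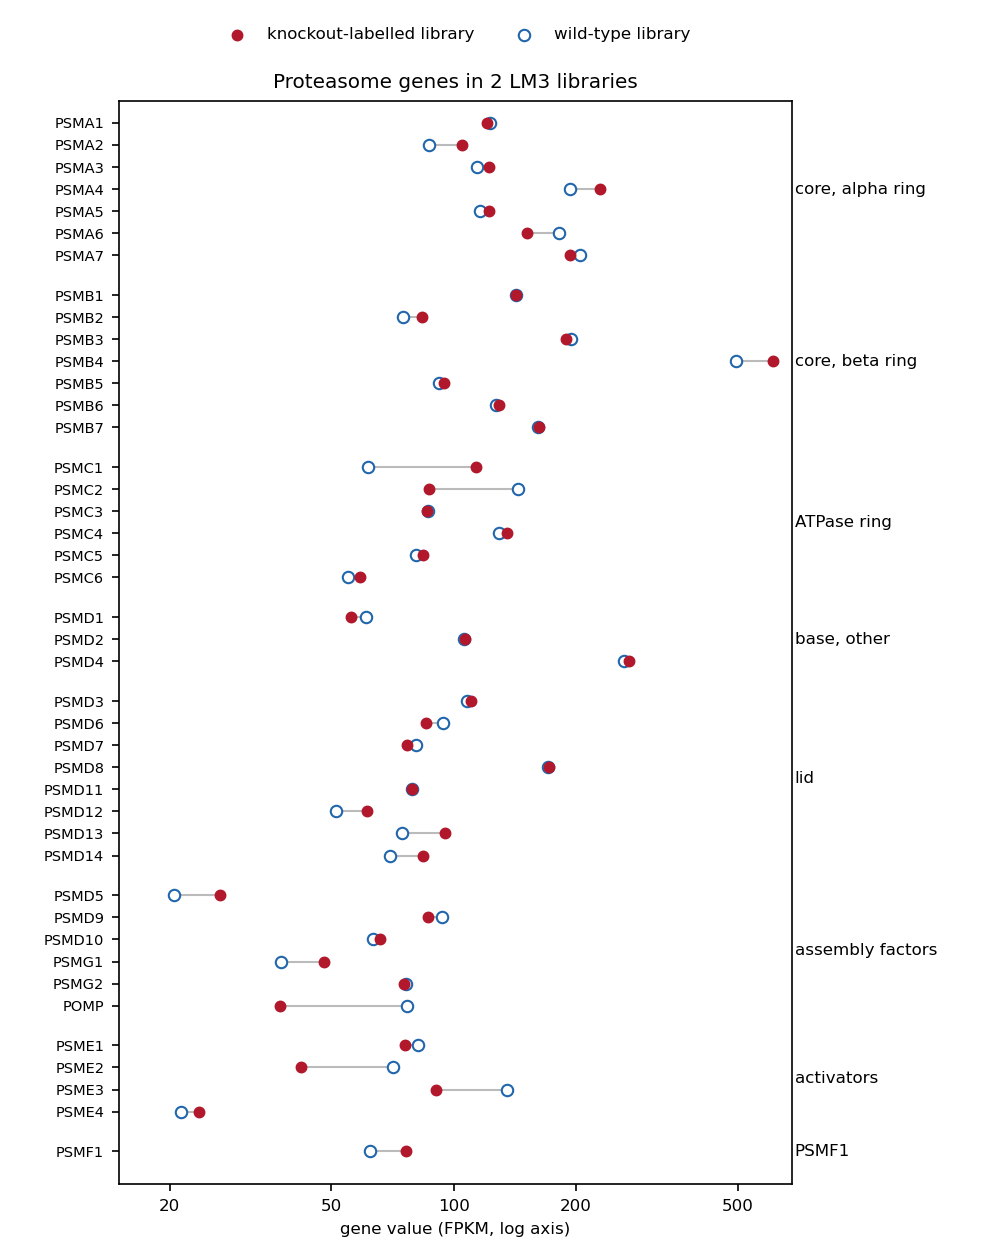
Gene values of the 42 proteasome genes in FPKM on a log axis, by role, with filled points for the knockout-labelled library and open points for wild type. For most genes the points nearly coincide, and the widest gaps are at POMP, PSMC1, PSME2 and PSMC2.

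The core alpha ring showed no gene at 1.5-fold. PSMA1 to PSMA7 encode its 7 subunits, which form the gate through which substrates enter, and their median log2 ratio was 0.07. PSMA4 had the highest level, with 229 FPKM in the knockout-labelled library and 193 FPKM in wild type. PSMA7 followed, with 194 FPKM in the knockout-labelled library and 205 FPKM in wild type, so these 2 subunits exchanged first place between libraries. PSMA2, the subunit with the lowest level in both libraries, had the highest ratio of the ring, 0.27, from 105 FPKM in the knockout-labelled library and 86.7 FPKM in wild type. The lowest ratio was that of PSMA6, -0.26, from 151 FPKM in the knockout-labelled library and 182 FPKM in wild type. PSMA6 has 4 pseudogene copies in the annotation, among which reads may be divided. PSMA1, PSMA3, PSMA5 and PSMA7 had ratios between -0.08 and 0.10. Within the ring the highest level was 2.19 times the lowest in the knockout-labelled library and 2.36 times in wild type.

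The beta ring, which holds the cutting sites, was likewise level between libraries, with a median log2 ratio of 0.03 and ratios between -0.04 and 0.30. PSMB5, PSMB6 and PSMB7 encode the chymotrypsin-like, caspase-like and trypsin-like proteases. PSMB5 had 94.8 FPKM in the knockout-labelled library and 92.1 FPKM in wild type. PSMB6 had 129 FPKM in the knockout-labelled library and 127 FPKM in wild type. PSMB7 had 162 FPKM in the knockout-labelled library and 161 FPKM in wild type. All 3 catalytic subunits thus differed by less than 0.05 on the log2 scale. PSMB4, a structural subunit, had the highest level of all 42 genes and the highest ratio of the ring, 0.30, with 609.9 FPKM in the knockout-labelled library and 496 FPKM in wild type. It is among the most abundant transcripts of these cells, at percentile 98.97 in the knockout-labelled library and 98.7 in wild type. PSMB2 had the lowest level of the ring, with 83.7 FPKM in the knockout-labelled library and 75.1 FPKM in wild type. PSMB3 had the ring's lowest ratio, -0.04, from 189 FPKM in the knockout-labelled library and 194 FPKM in wild type. PSMB1 was at 142 FPKM in both. Over the 14 core genes the median ratio was 0.03, with 9 above 0 and 5 below, and their sum was 1.06 times as high in the knockout-labelled library as in wild type.

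The ATPase ring of the base held 2 genes past 1.5-fold, PSMC1 and PSMC2, in opposite directions, while its other 4 genes lay within 0.1 of no difference on the log2 scale. The ring's median log2 ratio was 0.06. PSMC1 (ENSG00000100764, chr14:90256495-90275429, plus strand) had 113 FPKM in the knockout-labelled library and 61.4 FPKM in wild type, a log2 ratio of 0.87. PSMC2 (ENSG00000161057, chr7:103344254-103369395, plus strand) had 86.9 FPKM in the knockout-labelled library and 144 FPKM in wild type, a log2 ratio of -0.72. Each encodes 1 of the 6 ATPases, which sit once each in the assembled ring, so the 2 genes differed in opposite directions within a complex that takes up equal numbers of their products. PSMC4 had the ring's highest level in the knockout-labelled library, 135 FPKM, against 130 FPKM in wild type, where PSMC2 was highest. PSMC6 had the lowest, with 58.7 FPKM in the knockout-labelled library and 55.1 FPKM in wild type. PSMC3, at 86.0 FPKM in the knockout-labelled library and 86.3 FPKM in wild type, was nearest to no difference. PSMC5 had 84.1 FPKM in the knockout-labelled library and 80.7 FPKM in wild type.

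Both called ATPase values rest on which transcript starts or ends were listed. PSMC1 was listed at 2 starts. The start whose first junction lies at position 90256600, an exon boundary in GENCODE 29, carried 113 FPKM in the knockout-labelled library and 17.0 FPKM in wild type. The start at 90256161, which is no annotated boundary of the gene, carried 44.5 FPKM in wild type and was not listed in the knockout-labelled library. PSMC1 also has 13 pseudogene copies in the annotation, the most of any gene of the complex, and its level is uncertain to that extent. The only PSMC2 start above 0, at 103344525, is no annotated boundary of that gene. PSMC2 had 86.9 FPKM over both starts and ends in the knockout-labelled library, against 111 FPKM at its start and 144 FPKM at its end in wild type. From start events alone its log2 ratio was -0.35, under 1.5-fold.

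PSMC1 was listed with and without exon 3 of its 11 exons, which is shown here because the form without it would shift the reading frame: 97 coding bases at chr14:90260115-90260211 (hg38, plus strand). In the line below, as in those that follow for other genes, the sequence is that of the GENCODE 29 transcript from 5′ to 3′, the capitals mark the exon and the lower-case letters 15 bases of each neighbouring exon.
PSMC1: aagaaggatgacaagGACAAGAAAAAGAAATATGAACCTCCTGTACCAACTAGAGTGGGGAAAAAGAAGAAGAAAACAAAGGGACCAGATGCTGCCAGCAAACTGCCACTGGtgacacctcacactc
The form with the exon had 85.3 FPKM in the knockout-labelled library and 44.5 FPKM in wild type, and the form without it 28.1 FPKM and 17.0 FPKM. The share with the exon was 75.2% in the knockout-labelled library and 72.4% in wild type. Both forms were therefore higher in the knockout-labelled library, in nearly the same proportion. In wild type 44.5 FPKM and 17.0 FPKM are also the values of the gene's starts. The exon forms and the starts are thus not separate measurements.

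The other base genes, which hold and receive substrates, did not reach 1.5-fold, and their median log2 ratio was 0.01. PSMD4, a ubiquitin receptor, had 269.8 FPKM in the knockout-labelled library and 263 FPKM in wild type. PSMD2, a scaffold that docks ubiquitin-binding shuttles, had 107 FPKM in the knockout-labelled library and 106 FPKM in wild type. PSMD1, the other large scaffold, had 56.0 FPKM in the knockout-labelled library and 60.8 FPKM in wild type, the lowest ratio of the 3 at -0.12. PSMD4 was also listed with exon 7 of its 10 exons at 2 lengths, which differ by 3 codons at the donor end, at chr1:151266113-151266121 (hg38, plus strand). The whole exon is shown, with the extra bases in capitals.
PSMD4: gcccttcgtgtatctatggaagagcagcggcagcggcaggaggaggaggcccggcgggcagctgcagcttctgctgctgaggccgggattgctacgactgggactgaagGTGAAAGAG
The longer exon had 33.5 FPKM in the knockout-labelled library and 29.3 FPKM in wild type. Its share was 12.4% in the knockout-labelled library and 11.2% in wild type, so this minor form was listed at nearly the same proportion in both.

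The lid showed no gene at 1.5-fold, with a median log2 ratio of 0.02, or -0.14 from end events, above 0 in both libraries for 5 of its 8 genes. Of its 8 genes 5 were above 0 and 3 below. PSMD14, the enzyme that cuts ubiquitin chains off substrates, had 84.0 FPKM in the knockout-labelled library and 69.6 FPKM in wild type, a log2 ratio of 0.27. PSMD7, its partner in the lid, had 76.7 FPKM in the knockout-labelled library and 80.7 FPKM in wild type. Among the scaffold subunits, PSMD13 had the highest ratio, 0.34, with 94.99 FPKM in the knockout-labelled library and 74.7 FPKM in wild type. PSMD6 had the lowest ratio, -0.14, with 85.4 FPKM in the knockout-labelled library and 94.2 FPKM in wild type. These 2 genes bound the whole spread of the lid. PSMD8 had the highest level, 172 FPKM in the knockout-labelled library and 171 FPKM in wild type. PSMD12 had the lowest, with 61.3 FPKM in the knockout-labelled library and 51.4 FPKM in wild type. PSMD3 and PSMD11 lay within 0.1 of no difference.

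Summed over the 31 genes of core, base and lid, the 26S proteasome had 4215 FPKM in the knockout-labelled library and 4022 FPKM in wild type, a ratio of 1.05. The core summed to 2455 FPKM in the knockout-labelled library and 2307 FPKM in wild type. The regulatory particle's 17 genes summed to 1760.3 FPKM in the knockout-labelled library and 1715 FPKM in wild type. Core, ATPase and lid medians of 0.03, 0.06 and 0.02 lay within 0.05 of each other on the log2 scale, and from end events alone each was below 0, at -0.01, -0.004 and -0.14. The ATPase ratios ran over -0.72 to 0.87, those of the core over -0.26 to 0.30 and those of the lid over -0.14 to 0.34. That order of the spreads depended on the events used: from end events the core ran over -0.87 to 0.27 in 8 genes, the ATPases over -0.72 to 0.24 in 3 and the lid over -0.18 to 0.27 in 5.

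**Figure D2:**
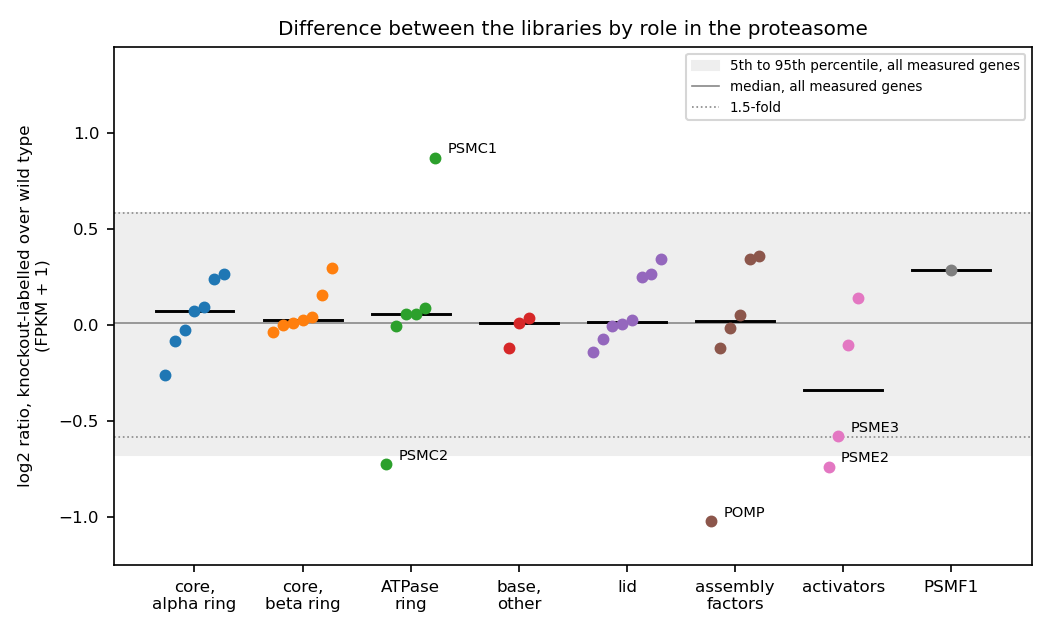
Log2 ratio of knockout-labelled over wild type (FPKM + 1) for each of the 42 genes, by role, with a bar at each role's median. The grey band spans percentiles 5 to 95 of all 10442 genes, from -0.68 to 0.58, and PSMC1, PSMC2, PSME2 and POMP lie outside it.

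Of the assembly factors POMP was lower in the knockout-labelled library and none was higher by 1.5-fold. POMP, the chaperone that joins core precursors and is degraded as the core matures (ENSG00000132963, chr13:28659104-28678925, plus strand), had 37.4 FPKM in the knockout-labelled library and 76.8 FPKM in wild type. Its log2 ratio was -1.02, the lowest of the 42 genes. POMP was listed at 1 start and at 2 ends. The end whose last junction lies at 28678035, an annotated exon boundary, had 37.4 FPKM in the knockout-labelled library and 29.9 FPKM in wild type. An earlier end at 28668698, which is no annotated boundary of the gene, had 46.8 FPKM in wild type and was not listed in the knockout-labelled library. The lower total thus went with the absence of that listed end, and the annotated end was not lower. The ends add up to the gene's value, so they and the total are not separate measurements.

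The remaining assembly factors did not reach 1.5-fold. PSMG1 and PSMG2 encode a pair of chaperones that start the alpha ring. PSMG1 had 48.1 FPKM in the knockout-labelled library and 37.6 FPKM in wild type, a log2 ratio of 0.35. PSMG2 had 75.6 FPKM in the knockout-labelled library and 76.3 FPKM in wild type. The 2 partners thus had unlike ratios. PSMD5, PSMD9 and PSMD10 encode chaperones of the base. PSMD5 had the highest ratio of the group, 0.36, with 26.6 FPKM in the knockout-labelled library and 20.5 FPKM in wild type, the group's lowest level in each. PSMD9 had the highest level, with 86.5 FPKM in the knockout-labelled library and 93.8 FPKM in wild type. PSMD10, also known as the liver oncoprotein gankyrin, had 65.7 FPKM in the knockout-labelled library and 63.3 FPKM in wild type.

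PSMG1 was listed with and without exon 4 of its 7 exons, which keeps the frame: 21 codons at chr21:39179924-39179986 (hg38, minus strand).
PSMG1: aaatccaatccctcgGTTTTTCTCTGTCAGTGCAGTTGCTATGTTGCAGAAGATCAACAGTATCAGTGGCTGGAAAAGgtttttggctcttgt
The form with the exon had 32.4 FPKM in the knockout-labelled library and 21.3 FPKM in wild type. The form without it had 15.7 FPKM in the knockout-labelled library and 16.3 FPKM in wild type. Split by this exon, the difference between the libraries was in the form with the exon, whose share was 67.3% in the knockout-labelled library and 56.7% in wild type. The exon forms and the gene's starts, given below, split the same total and are not separate measurements.

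The activators had the lowest median ratio of the role groups, -0.34, over 4 genes of which 3 were below 0. They summed to 232 FPKM in the knockout-labelled library and 309 FPKM in wild type, a ratio of 0.751. PSME1 and PSME2 encode the partners of the interferon-inducible activator ring, which opens the core's gate without ATP. PSME2 (ENSG00000100911, chr14:24143362-24147570, minus strand) had 42.2 FPKM in the knockout-labelled library and 70.9 FPKM in wild type, a log2 ratio of -0.74, the same over starts and ends. PSME1 had 75.9 FPKM in the knockout-labelled library and 81.5 FPKM in wild type, a log2 ratio of -0.10. The partners therefore differed in how far each was lower. PSME2 has 2 pseudogene copies in the annotation. PSME3 (ENSG00000131467, chr17:42824385-42843758, plus strand), which forms a nuclear activator ring by itself, had the group's highest level, with 90.3 FPKM in the knockout-labelled library and 135 FPKM in wild type. Its log2 ratio of -0.58 was just short of 1.5-fold, and past it once the libraries were scaled to a median ratio of 0. It was the nearest gene outside the rule, as PSMC2 was the nearest inside. PSME4, which encodes a large single-chain activator, had 23.6 FPKM in the knockout-labelled library and 21.3 FPKM in wild type. PSMF1, an inhibitor of the core by itself, had 76.4 FPKM in the knockout-labelled library and 62.4 FPKM in wild type, a log2 ratio of 0.29.

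The lower values of PSME2 and PSME3 each went with a form of an exon that was listed above 0 in wild type alone. The forms of each exon add up to the gene's value, so the forms and the lower total are not separate measurements. In PSME2 the exon is exon 2 of 11, with 11 codons at chr14:24146208-24146240 (hg38, minus strand).
PSME2: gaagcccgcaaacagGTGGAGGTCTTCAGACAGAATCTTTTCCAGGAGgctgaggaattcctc
The form with the exon had 42.2 FPKM in the knockout-labelled library and 33.5 FPKM in wild type. The form without it stood at 0 in the knockout-labelled library and at 37.4 FPKM in wild type. Inclusion was thus 100% in the knockout-labelled library and 47.3% in wild type, and the form with the exon was not the lower one.

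In PSME3 that form lay at the acceptor end of exon 7 of 11, where a longer exon adds 13 codons at chr17:42838692-42838730 (hg38, plus strand). The whole longer exon is shown, with the added bases in capitals.
PSME3: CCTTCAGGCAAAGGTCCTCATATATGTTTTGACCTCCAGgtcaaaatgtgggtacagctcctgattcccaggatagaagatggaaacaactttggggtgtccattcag
The longer exon stood at 0 in the knockout-labelled library and at 29.6 FPKM in wild type. The shorter exon had 90.3 FPKM in the knockout-labelled library and 106 FPKM in wild type. In the same gene a run of 2 exons near the start, of 327 bases together, was at 0 in the knockout-labelled library and at 26.9 FPKM in wild type, where the form without it had 108 FPKM. In wild type the longer exon made up 21.9% of its pair and the run 19.9%, so both were minor forms there. Both pairs split the same gene value and are not separate measurements. The major form, with the shorter exon, was also lower in the knockout-labelled library.

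Listed transcript starts differed between the libraries at several genes whose total did not reach 1.5-fold. How often this occurs over all genes was not computed, and a start at 0 in 1 library can be a failed estimate. Of the 42 genes 36 had 1 start, listed in both libraries, and 6 had several. At PSMB5 the upstream start, at junction 23035112, had 80.4 FPKM in the knockout-labelled library, or 84.9% of the gene's starts, and was listed at 0 in wild type. The downstream start, at 23034684, had 14.3 FPKM in the knockout-labelled library and 92.1 FPKM in wild type, so the gene's near-equal totals came from different starts. At PSMG2 the upstream start held 53.6% of the gene's starts in the knockout-labelled library and 68.9% in wild type. At PSMG1 the upstream start was at 37.7 FPKM in the knockout-labelled library and 37.6 FPKM in wild type, and a second start held 10.4 FPKM in the knockout-labelled library and 0 in wild type. Split by start, the gene's difference in total was nearly all in this second start. The exon forms of PSMG1 above split the same total. PSMA5 had 4 starts, of which 2 lie 15 bases apart and are no annotated boundaries: 1 had 53.4 FPKM in the knockout-labelled library and 0 in wild type, and the other had 44.4 FPKM in wild type and was not listed in the knockout-labelled library. PSMA4 had 2 starts with similar shares, the upstream one holding 42.3% in the knockout-labelled library and 46.3% in wild type. Of 80 start and end junctions above 0 over the 42 genes, 75 lay at annotated exon boundaries of the gene.

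**Figure D3:**
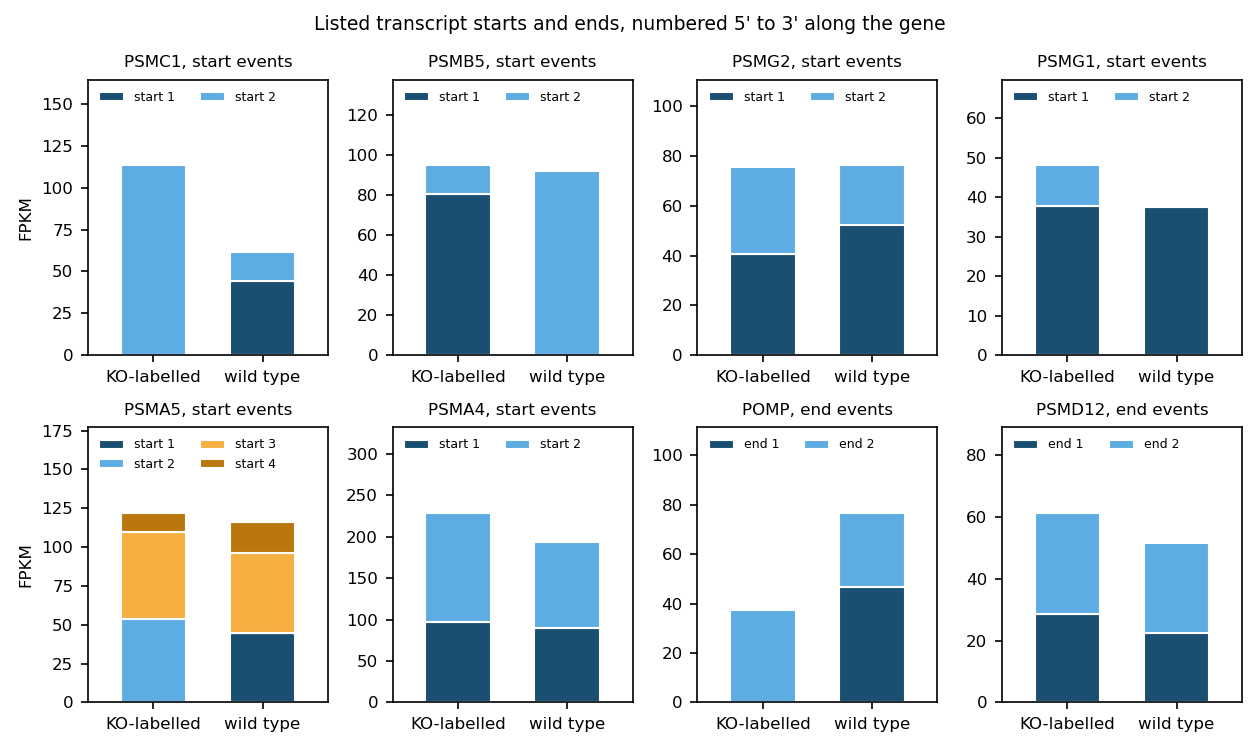
FPKM of each listed start or end, stacked, for the 6 genes with several starts and the 2 with several ends, with the knockout-labelled library left of wild type. Bars of PSMC1 and POMP differ in height along with a start or end listed in wild type alone, while those of PSMB5 are nearly equal in height and differ in makeup.

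Ends were listed less completely than starts. The end sum was 0 in 15 of the 42 genes in the knockout-labelled library and in 17 in wild type, while none of the 42 had a start sum of 0. Start and end sums agreed within 5% in 20 genes in the knockout-labelled library and 19 in wild type, and at the others a gene's value rests on 1 kind of event. PSMA4 shows the size this can take: its end was at 105 FPKM in the knockout-labelled library and 193 FPKM in wild type, opposite in direction to its starts. PSMD12 had 2 ends, the downstream one at 32.7 FPKM in the knockout-labelled library and 28.99 FPKM in wild type, and the upstream one at 28.6 FPKM and 22.4 FPKM.

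Skipped exons were listed in most genes of the complex, nearly always in the same state in both libraries. Of 75 pairs of forms over 74 exons in 31 genes, 45 had the exon fully included in both libraries, 21 had it absent in both, and 9, in 8 genes, had both forms in at least 1 library. That is 12.0% of pairs, against 17.7% over all genes. Inclusion differed by 20 points or more in 3 pairs, against 5.94% of all pairs (753 of 12668) and 33.6% of all pairs with both forms in a library (753 of 2241). The 3 pairs were the PSME2 exon above and 2 neighbouring exons of PSMD13.

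PSMD13, the lid gene with the highest ratio, was listed in 3 forms around its exons 2 and 3, of 79 and 35 bases, at chr11:238998-239076 and chr11:244041-244075 (plus strand). The form with both exons had 42.0 FPKM in the knockout-labelled library and 34.7 FPKM in wild type. The form with exon 2 alone had 20.9 FPKM in the knockout-labelled library and 40.01 FPKM in wild type. The form with neither had 32.1 FPKM in the knockout-labelled library and was listed at 0 in wild type. Each exon alone would shift the frame, and together they span 114 bases, a multiple of 3. Between the forms with exon 2 alone and with neither, inclusion of exon 2 was 39.5% in the knockout-labelled library and 100% in wild type. Between the forms with both and with exon 2 alone, inclusion of exon 3 was 66.7% in the knockout-labelled library and 46.4% in wild type. The pairs share the form with exon 2 alone and are not separate measurements.

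The other mixed exons were closer between libraries. PSMD12, a scaffold of the lid, was listed with and without exon 2 of its 11 exons, of 20 codons at chr17:67357519-67357578 (hg38, minus strand), shown as an exon mixed to the same degree in both.
PSMD12: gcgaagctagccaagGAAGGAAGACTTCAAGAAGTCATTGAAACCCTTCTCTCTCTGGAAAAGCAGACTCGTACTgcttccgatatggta
Its share was 63.8% in the knockout-labelled library and 61.8% in wild type. Exon 3 of PSMF1, of 83 bases, was included at 36.5% in the knockout-labelled library and 35.1% in wild type. An exon of 65 bases in PSMD9, annotated in a transcript subject to nonsense-mediated decay, was included at 51.9% in the knockout-labelled library and 44.2% in wild type. These 3 genes kept a similar mix of forms in both libraries. A 66-base exon of PSME4, annotated in a noncoding transcript, was included at 19.8% in the knockout-labelled library and listed at 0 in wild type. A run of 3 exons of PSMC6, 264 bases in all, was included at 75.6% in the knockout-labelled library and 67.7% in wild type. Among alternative exon ends, a 13-base extension in PSMA5 held 66.7% in the knockout-labelled library and 68.8% in wild type, and a 79-base extension in PSMD10 held 84.4% and 100%. Of 23 retained introns listed in these genes, 1, in PSMD10, was above 0 in each library.

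**Figure D4:**
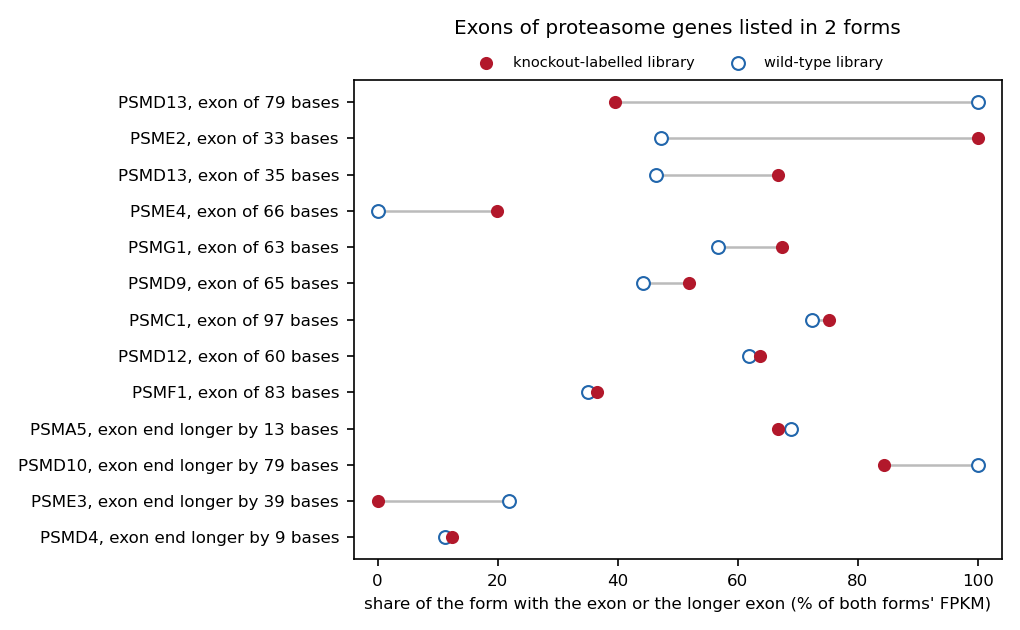
Share of the form with the exon, or with the longer exon, in percent of the FPKM of both forms, with filled points for the knockout-labelled library and open points for wild type. The widest gaps are at the 79-base exon of PSMD13 (39.5% against 100%) and the 33-base exon of PSME2 (100% against 47.3%), and the exons of PSMC1, PSMD12 and PSMF1 nearly coincide. The share of the 79-base exon leaves out the PSMD13 form that holds both this exon and its neighbour.

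Of 52 further pathway genes in 6 lists, 42 were above 0 in both libraries. None of these reached 1.5-fold, against 11.5% of all genes and 7.09% of those at 20 to 700 FPKM, and their median log2 ratio was 0.02, with 23 above 0 and 19 below. A further 4 (PSMB9, ECPAS, UBQLN2 and UBQLN4) were listed at 0 in wild type and between 10.3 and 56.7 FPKM in the knockout-labelled library, and none was at 0 in the knockout-labelled library alone. They are 8.70% of the 46 measured genes, against 3.55% of all genes (384 of 10826) listed at 0 in either library alone, and an exact 0 can be a failed estimate. NFE2L1, the transcription factor that raises subunit expression when proteasome activity falls, had 46.8 FPKM in the knockout-labelled library and 46.1 FPKM in wild type. NGLY1, which removes sugars from it, had the highest ratio of the control list, 0.39, with 21.7 FPKM in the knockout-labelled library and 16.3 FPKM in wild type. MAFF, a small partner protein of such factors, had the lowest, -0.39, with 6.41 FPKM in the knockout-labelled library and 8.74 FPKM in wild type. The control list as a whole had a median of 0.03 over 8 genes.

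Among other components of the complex, USP14, a proteasome-bound deubiquitinase, had the highest ratio, 0.40, with 65.7 FPKM in the knockout-labelled library and 49.6 FPKM in wild type. ADRM1, a ubiquitin receptor, had the lowest, -0.14, with 114 FPKM in the knockout-labelled library and 125 FPKM in wild type. ECPAS, a proteasome adaptor, had 27.9 FPKM in the knockout-labelled library and was listed at 0 in wild type. Of the subunits that replace the catalytic ones in the immunoproteasome, PSMB8 had 21.6 FPKM in the knockout-labelled library and 23.1 FPKM in wild type. PSMB10 had 8.60 FPKM in the knockout-labelled library and 11.8 FPKM in wild type, a log2 ratio of -0.42. PSMB9 had 11.7 FPKM in the knockout-labelled library and was listed at 0 in wild type. PSMB8 and PSMB10 were far below the constitutive PSMB5, PSMB6 and PSMB7 in both libraries. The PSMB10 values rest on end events alone, as its start sum was 0 in each library. PSMA8, a testis subunit, was listed at 0 in both, as were PSMG4, PAAF1 and NEDD8. A value of 0 covers only the start and end events that were assigned to the gene. Whether unassigned events or failed estimates lie behind a 0 at these genes was not tested, so it is not read as absent expression.

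Among the genes that encode ubiquitin itself, UBB had 559 FPKM in the knockout-labelled library and 543 FPKM in wild type. UBA1, the main ubiquitin-activating enzyme, had the highest ratio of that list, 0.15, with 184 FPKM in the knockout-labelled library and 166 FPKM in wild type. UBA3, which activates NEDD8, had the lowest, -0.24, with 31.4 FPKM in the knockout-labelled library and 37.2 FPKM in wild type. Of the factors that carry or extract substrates, TXNL1 is a thioredoxin-like protein of the regulatory particle. It had 55.6 FPKM in the knockout-labelled library and 77.4 FPKM in wild type. Its ratio of -0.47 was the lowest of the 42 pathway genes above 0 in both libraries. The shuttle genes UBQLN2 and UBQLN4 had 10.3 and 56.7 FPKM in the knockout-labelled library and were listed at 0 in wild type. The COP9 signalosome, a complex built like the lid, had ratios between -0.32 at COPS7B and 0.27 at COPS5, with a median of 0.04 over 9 genes. COPS5, its catalytic subunit, had 71.9 FPKM in the knockout-labelled library and 59.6 FPKM in wild type. COPS7B had 15.9 FPKM in the knockout-labelled library and 20.1 FPKM in wild type.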

How the data were processed

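RNA of LM3 cells was measured in 1 library per genotype. The labels' protocols give poly-A selection, 12 PCR cycles and paired reads of 100 bases. The submitters' processing notes name hg38 and Bowtie 0.12.2, with no role. The authors deposited FPKM per start, end and splicing event, per the file headers. The program that defined the events, and whether it used strand, is not given in the sources used here. FPKM holds no read counts, so the depth behind a value is unknown and no counting interval was computed. The tables hold 322588 events for the knockout-labelled library and 322464 for wild type, of which 25.5% and 25.3% are above 0.

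A gene's value was the larger of its summed start and summed end FPKM. Rows naming several genes went to the gene with a GENCODE 29 exon boundary at the junction, which left 2.45% and 2.41% of start and end events unassigned. The log2 ratio used a pseudocount of 1 FPKM, which understates low genes, for genes at 1 FPKM or more in the larger library and above 0 in both. Inclusion was the share of the form with the exon, where the 2 forms together reached 5 FPKM in each library. Sequences were read from GENCODE 29 transcripts. All members could be named; full values were given for the highest and lowest ratio and level of each role, for genes at 1.5-fold and for genes listed at 0. Values of some further pathway genes are not reported here. The members and lists were chosen with earlier results of these data known. The procedure was tested on simulated data with changes well past 1.5-fold and with every start and end above 0. That test does not cover changes near 1.5-fold or values of 0. Alternatives were another pseudocount, scaling, minimum, fold, event kind and row choice. Python 3.11.15, numpy 2.4.6, pandas 2.3.3 and matplotlib 3.10.9 were used.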

Additional observations from a re-analysis of the deposited data

How the results depend on the processing

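None of the 4 genes at 1.5-fold changed sign under any alternative that gave it a value, and 75 of the 83 summary values under alternatives moved little (less than 0.1 on the log2 scale for a median, less than 1.5 times for a count, less than 5 points for inclusion). The count of 4 proteasome genes at 1.5-fold was 2 of 18 where a gene's start sum and end sum agree within 5% (POMP and PSME2) and 1 at a fold of 2 (POMP). It was 3 from start events alone, without PSMC2, and 4 of 24 from end events alone, with PSMA4 in place of PSMC1. Scaling the median ratio to 0 added PSME3, and moved the split to 22 above 0 and 20 below, while scaling to TPM gave 29 and 13. From end events alone the medians, all near 0 as reported, turned below 0: -0.0024 for the members, -0.0136 for the core over 8 genes, -0.004 for the ATPases over 3 and -0.14 for the lid over 5. Where sums agree the core median was -0.0008 over 7 genes, and the ATPase value was that of PSMC3 alone, -0.004. The lid median was 0.25 over the 3 genes whose sums agree. The count over all genes, 1201 of 10442, was 1217 of 10075 from start events alone and 804 of 6353 from end events alone. It was 463 of 4752 where sums agree, and 1204 of 10442 with the median ratio scaled to 0. At a minimum of 5 FPKM it was 784 of 8077, and at a fold of 2 it was 338 of 10442. In a range chosen after seeing the data, mean levels of 20 to 700 FPKM, it was 271 of 3820. From ends alone the log2 ratio was -0.87 for PSMA4, 0.24 for PSMC6, -0.18 for PSMD7 and -0.14 for PSMD8, and from starts alone -0.35 for PSMC2. Requiring agreement, a minimum or a range leaves fewer genes in a count; otherwise the cause was not tested. No paired analysis was possible because each genotype has 1 library. Depth is unknown, so what it limits cannot be stated.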
